A study of Drosophila melanogaster with 7 samples.

Results

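The Hox genes of Drosophila melanogaster are the 8 homeotic genes of the Antennapedia complex (lab, pb, Dfd, Scr and Antp) and the bithorax complex (Ubx, abd-A and Abd-B). They were taken by gene symbol from a table of 17208 genes, and all 8 were found in it. The table holds RNA-seq counts of wing discs, the larval epithelial sacs that form the wing and the dorsal thorax, dissected at the third larval instar. There were 3 libraries labelled WT, whose library names carry w1118, a white-eyed laboratory strain, and 4 libraries labelled ds38k, an allele of the atypical cadherin gene ds (dachsous). The comparison asks how the mutant discs differ from the WT discs. The WT library names also carry a further tag that is not explained. Zygosity, sex, the genetic background of the ds38k discs and the number of discs per library are not stated in the labels. Nor is it stated that replicates are separate animals, so p-values measure only the spread between these libraries.

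Each Hox gene encodes a homeodomain transcription factor that gives cells of one stretch of the head-to-tail axis their identity, and within each complex the genes lie in about the same order as the body regions they specify. lab, pb, Dfd and Scr act in the head and first thoracic segment, Antp in the thorax, Ubx in the third thoracic segment, and abd-A and Abd-B in the abdomen. The wing disc belongs to the second thoracic segment. Antp is known there mainly from the proximal and peripodial cells, while Ubx is the selector of the haltere disc, the serial homologue of the wing disc. Polycomb group proteins keep Hox genes silent outside their domains, and trithorax group proteins keep them active within them.

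The WT libraries held 21438604 to 31718937 counts and the ds38k libraries 25192527 to 31141974. A count of 3, used as the limit that a count of 0 allows, corresponded to 0.0855 to 0.128 CPM (counts scaled to library size) in the WT libraries. Such limits, and the 95% intervals given for single libraries, cover counting error only. The targeted gene ds was at 1420 to 1699 CPM in WT and 161 to 228 CPM in ds38k, 7.74-fold lower (edgeR quasi-likelihood, adjusted p = 4.7e-06). Some measures of the libraries moved with genotype. Ribosomal RNA genes took 0.839% to 1.5% of the counts in WT and 11.4% to 15.2% in ds38k. Fold changes over all genes ran with transcript length. The median log2 value was 0.92 in the shortest of 10 length classes and −1.57 in the longest. With the length trend removed, ds was 2.28-fold lower (edgeR quasi-likelihood, adjusted p = 9.3e-05). The summed level of 7 wing disc identity genes was 2421 to 3100 CPM in WT and 893 to 1351 CPM in ds38k. Of 7 fat body genes, all 7 rose in ds38k, beside 34.2% of all tested genes. In several marker sums ds38k replicate 4 stood apart from the other ds38k libraries.

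Antp was by far the most abundant Hox transcript in both genotypes, followed by Ubx, and the other 6 genes had at most 78 counts in any library. Levels of different genes were compared as CPM per kb of the median annotated transcript. In WT, Antp was at 46.8 ± 12.4 CPM per kb (SD, n = 3), Ubx at 3.44 ± 1.74, lab at 0.562 ± 0.299 and Scr at 0.178 ± 0.0775. The WT ranges of neighbours in that order did not overlap among these 4 genes. The lower 4 genes, pb, Abd-B, abd-A and Dfd, could not be ordered in WT, since each was at 0 or at no more than 2 counts in a library. In ds38k the order began in the same way, with Antp at 20.6 ± 2.38 CPM per kb (SD, n = 4) and Ubx at 2.26 ± 0.612. abd-A followed at 0.36 ± 0.299 CPM per kb and lab at 0.31 ± 0.279, with Scr, Abd-B, Dfd and pb lower. From abd-A downward, every neighbour in the ds38k order overlapped the next. Against the 9224 tested genes with an annotated length, 21.2% were higher than Antp per kb in WT and 42.0% in ds38k, while 75.1% were higher than Ubx in WT and 77.9% in ds38k.

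**Figure D1:**
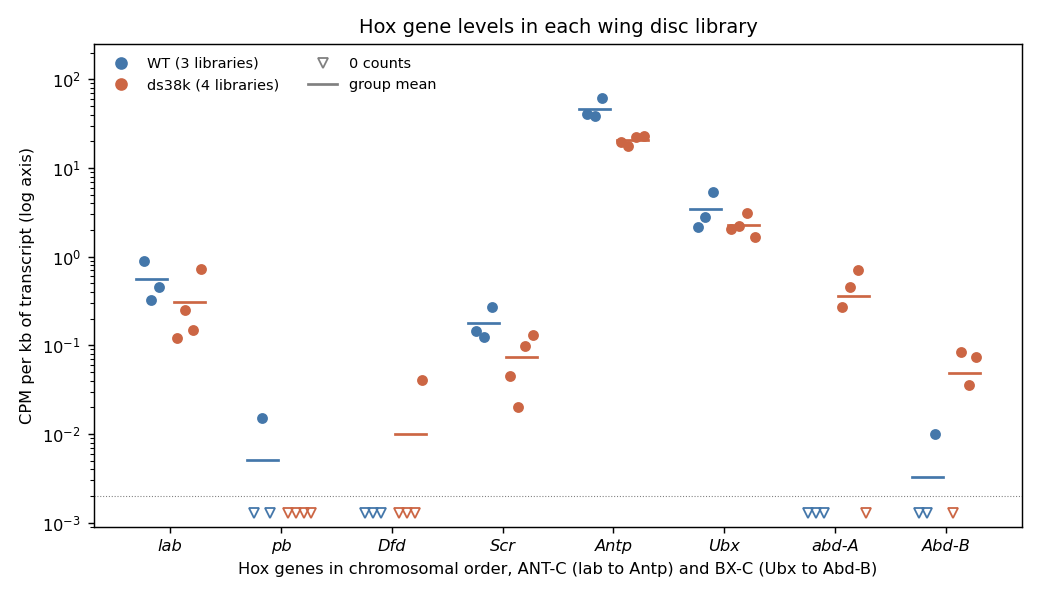
Level of each Hox gene in each library, in CPM per kb of transcript on a log axis, with the genes in chromosomal order. Points are libraries (3 WT, 4 ds38k), short lines are group means, and open triangles under the dotted line mark libraries with 0 counts. Antp is the highest gene in all 7 libraries, and abd-A has counts in ds38k replicates 1 to 3 only.

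Together the Hox genes summed to 194 to 308 CPM in WT and 94.2 to 120 CPM in ds38k, and most of that sum was Antp. Antp took 94.5%, 93.8% and 92.5% of all Hox counts in WT replicates 1 to 3, and 90.5%, 87.6%, 86.5% and 92.3% in ds38k replicates 1 to 4. The ds38k shares were lower in every library. ds38k replicate 4, with a 95% Wilson score interval of 91.3% to 93.1%, nevertheless lay close to WT replicate 3, at 91.9% to 93.0%. Ubx took 4.21% to 6.86% of the Hox counts in WT and 5.59% to 10.1% in ds38k, which overlapped. The ratio of Antp to Ubx counts was 22.4, 16.9 and 13.5 in WT and 11.6, 9.5, 8.57 and 16.5 in ds38k, again overlapping through ds38k replicate 4.

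Of the 8 Hox genes, 5 passed the filter on low counts and entered the test. Among those, 1 was higher in ds38k (abd-A), 1 was lower (Antp), and lab, Scr and Ubx were not called. abd-A had 0 counts in WT and passed the filter only through the ds38k libraries in which it was high, so its call is no support. Across the 9294 tested genes, 34.2% were called higher and 30.8% lower at an adjusted p under 0.05, 65.0% in either direction. The Hox genes' share of calls did not exceed that background. The median log2 fold change of the 5 genes was −0.84, beside 0.07 over all tested genes. With the trend of fold change on transcript length removed, 1 was higher (abd-A) and 0 were lower, with a median of 0.00 beside 0.06 over all genes, where 27.6% were higher and 19.1% lower, 46.7% in either direction. pb, Dfd and Abd-B did not pass the filter and are described by their counts.

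Antp (FBgn0260642), which specifies the second thoracic segment and represses head identity, was lower in every ds38k library. It lies on chromosome arm 3R of dm6 from 6896253 to 6999228 on the minus strand, at the distal end of the Antennapedia complex, with 12 annotated transcripts. Antp was at 188, 182 and 285 CPM in WT replicates 1 to 3, and at 92.0, 82.6, 104 and 107 CPM in ds38k replicates 1 to 4. All 4 ds38k libraries lay below all 3 WT libraries, and WT replicate 3 stood above the other WT libraries. Non-overlap in that direction was seen for 32.0% of all tested genes. The means were 218.5 ± 57.8 CPM (SD, n = 3) and 96.3 ± 11.1 CPM (SD, n = 4), and Antp fell by 1.18 on the log2 scale (SE 0.18; edgeR quasi-likelihood, Benjamini-Hochberg adjusted p = 8.6e-04). For Antp alone, an exact permutation test (two-sided, on log2 CPM) gave p = 0.0286, the smallest that 3 against 4 libraries can give. In bulk RNA, fewer cells that express a gene and less RNA of it per cell cannot be told apart.

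Genes with transcripts as long as those of Antp were mostly lower too. Its median annotated transcript is 4665.5 bases, which placed it at the short edge of the longest of the 10 length classes, where 84.6% of 922 genes were called lower and the median log2 fold change was −1.57. The class next to it, of shorter transcripts, had a median of −0.87. With the length trend removed, Antp differed by a log2 value of 0.00 (SE 0.14, adjusted p = 0.994, edgeR). The call for Antp therefore depends on the length correction, and the cause of the trend was not tested. With ds38k replicate 4 as the only ds38k library, assumed to vary like the WT libraries, the log2 fold change was −1.05 with an adjusted p of 0.0512. Summed markers of proximal tissue were also lower in ds38k, but not gene by gene. The 6 hinge genes summed to 2444, 2726 and 3725 CPM in WT and 1184 to 1739 CPM in ds38k, and 12 notum genes to 816 to 944 CPM in WT and 511 to 720 CPM in ds38k. Of the hinge genes 4 were lower and 0 higher, with hth at 0.28 and not called. Of the notum genes 2 were lower, 2 higher and 8 not called. Over all tested genes 30.8% were lower and 34.2% higher. With the length trend removed, 3 hinge genes were lower and 1 higher (hth, at 1.34), and 2 notum genes were lower and 3 higher. All tested genes were then 19.1% lower and 27.6% higher. The median log2 fold change then moved from −1.87 to −0.68 for the hinge and from −0.37 to 0.01 for the notum. The sums were not corrected for length. WT replicate 3 had the highest hinge sum as well as the highest Antp, Ubx and Scr levels, and the part of tissue makeup in the Antp difference was not tested.

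**Figure D2:**
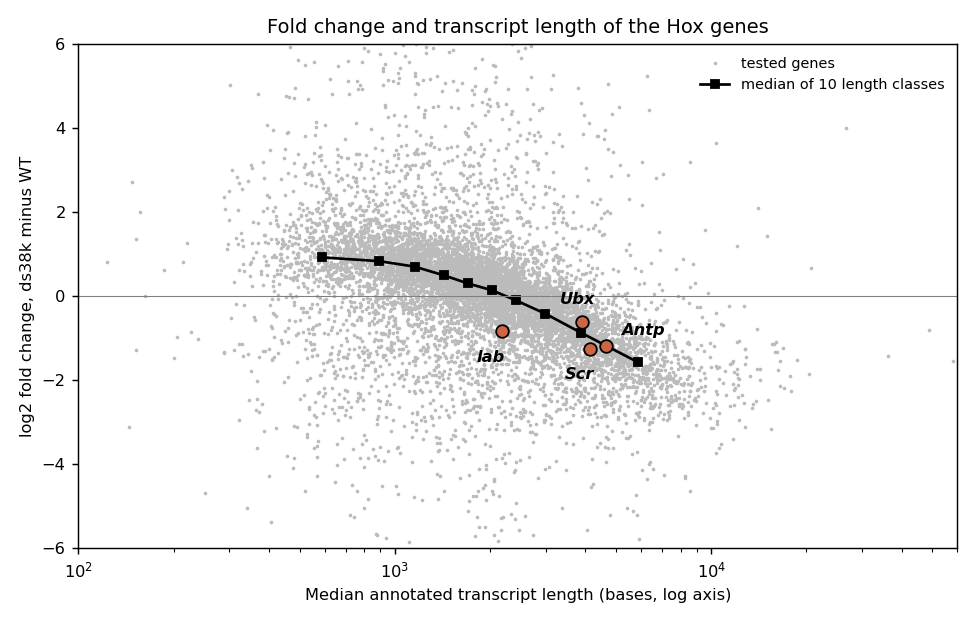
Log2 fold change, ds38k minus WT, against the median annotated transcript length of 9103 tested genes on a log axis. Gray points are genes, black squares are medians of 10 length classes, and orange points are lab, Scr, Ubx and Antp. The axis ends at 6 in both directions, which leaves out 121 genes, abd-A among them. Antp lies close to the line of class medians, at −1.18.

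Ubx (FBgn0003944), which turns wing into haltere identity in the third thoracic segment, was present at a low level in both genotypes and did not pass the test. Ubx lies on 3R from 16656623 to 16734426 on the minus strand, the start of the bithorax complex, with 6 annotated transcripts. It was at 8.39, 10.8 and 21.1 CPM in WT and at 7.96, 8.69, 12.1 and 6.46 CPM in ds38k. The groups overlapped, and WT replicate 3 was again the highest library. For Ubx edgeR's quasi-likelihood test gave a log2 fold change of −0.61 (SE 0.36, adjusted p = 0.167), which was −0.13 without WT replicate 3 and 0.35 (SE 0.35, adjusted p = 0.447) with the length trend removed. In its own length class the median was −0.87. An antisense RNA, asRNA:PS4, overlaps exons of Ubx in the annotation and was not analysed here. Whether counting used the strand is not stated in the labels, so reads of these 2 genes cannot be told apart.

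Of 6 wing genes reported as repressed by Ubx in the haltere disc, 5 were lower in ds38k, 0 higher and 1 not called. Their median log2 fold change was −1.16, beside 0.07 over all tested genes, of which 30.8% were lower and 34.2% higher. salm, a zinc finger gene of the central wing, had 458, 487 and 562 CPM in WT and 45.9, 47.0, 53.1 and 122 CPM in ds38k, and fell by 2.91 on the log2 scale (SE 0.37, adjusted p = 3.7e-04, edgeR). vg, the wing selector gene, fell by 1.21 (SE 0.31, adjusted p = 0.0106), bs, the fly serum response factor, by 1.47 (SE 0.40, adjusted p = 0.0132, or 0.0507 without WT replicate 3), and salr by 0.60 (SE 0.08). With the length trend removed, 1 of the 6 was lower (salm, at −1.46) and 1 higher (salr, at 0.50). The shares over all tested genes were then 19.1% lower and 27.6% higher. Ubx, the repressor that the list is named for, was not called in the same comparison, and its part in these differences was not tested.

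Of the 4 Hox genes of the head and first thoracic segment, lab and Scr had a few counts in every library, while pb and Dfd were almost absent. lab (FBgn0002522), the most anteriorly acting Hox gene, which also acts in the midgut, lies on 3R from 6661427 to 6678590. It had 46, 25 and 29 counts in WT and 7, 13, 8 and 43 in ds38k, or 1.96, 0.713 and 1.0 CPM against 0.261, 0.546, 0.328 and 1.57 CPM. ds38k replicate 4 lay within the WT range, and the other ds38k libraries lay below it. The fold change of lab, on the log2 scale, was −0.84 (SE 0.70, edgeR adjusted p = 0.323) and −0.88 (SE 0.70) with the length trend removed. Single libraries moved it: without ds38k replicate 4 it was −1.67 with an adjusted p of 0.024, and without WT replicate 1 it was −0.33 with an adjusted p of 0.742.

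Scr (FBgn0003339), which specifies the labial and first thoracic segments, lies on 3R from 6823120 to 6849981. It had 14, 18 and 32 counts in WT and 5, 2, 10 and 15 in ds38k, or 0.596, 0.513 and 1.11 CPM against 0.187, 0.084, 0.410 and 0.548 CPM. The groups overlapped by 1 library, since ds38k replicate 4 lay above WT replicate 2. The fold change of Scr, on the log2 scale, was −1.25 (SE 0.64, edgeR adjusted p = 0.125), −1.68 with an adjusted p of 0.0454 without ds38k replicate 4, and −0.25 (SE 0.61, adjusted p = 0.754) with the length trend removed. Several long noncoding RNA genes lie within the span of Scr in the annotation, and none of them shares an exon with it.

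pb (FBgn0051481), which specifies the mouthparts, had 2 counts in WT replicate 2 and 0 in the other 6 libraries. Dfd (FBgn0000439), which specifies the maxillary and mandibular segments, had 3 counts in ds38k replicate 4, or 0.11 CPM, and 0 in the other 6. Neither gene rose above the limit of 3 counts in any library, so at this depth no difference between genotypes was detectable for either. Counts this low were common: 5284 of the 17208 genes, 30.7%, had at most 3 counts in every library. Head and leg disc genes were not at 0 in the same libraries. The 10 eye-antennal disc markers summed to 105.5 to 133 CPM in WT and 13.4, 7.26, 7.14 and 48.9 CPM in ds38k. Most of that sum in WT was eya and so. Of the 6 eye-antennal genes tested, 2 were lower, 1 higher and 3 not called, beside 30.8% lower and 34.2% higher over all tested genes. Their median log2 fold change was 0.55, or 0.76 with the length trend removed. The 7 leg disc markers summed to 134 to 188 CPM in WT and 39.6 to 110 CPM in ds38k. In both sums ds38k replicate 4 was the highest ds38k library, as it was for lab, Scr and Dfd, and the part of these tissues in the Hox levels was not tested.

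abd-A (FBgn0000014), which specifies abdominal segments and is known to act in larval fat body, muscle and neuroblasts of the abdomen, was absent from WT and present in 3 of the 4 ds38k libraries. abd-A lies on 3R from 16807214 to 16830049 on the minus strand. It had 0 counts in each WT library and 33, 49, 78 and 0 counts in ds38k replicates 1 to 4, or 1.23, 2.06, 3.20 and 0 CPM in ds38k. The exact Poisson 95% intervals were 0.848 to 1.73, 1.52 to 2.72 and 2.53 to 4.0 CPM in ds38k replicates 1 to 3, and up to 0.135 CPM in replicate 4. ds38k replicate 4 could therefore not be told from the WT libraries, and the groups overlapped. Against the limit of 3 counts in the WT libraries, abd-A was at least 9.65-fold, 16.1-fold and 25.1-fold higher in ds38k replicates 1 to 3.

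As said of the filter, the call of abd-A is a description of the ds38k libraries in which it was high. edgeR's quasi-likelihood test gave an adjusted p of 0.0269 for abd-A, and 0.0256 with the length trend removed. Without any 1 of the WT libraries the adjusted p was 0.0529 to 0.0627, without ds38k replicate 4 it was 6.6e-04, and the exact two-sided permutation test over the 7 libraries gave p = 0.143. A pattern was shaped on the counts of abd-A, so abd-A meets it by construction. It was at most 3 counts in every WT library and in ds38k replicate 4, and at least 20 in ds38k replicates 1 to 3. The pattern was seen in 23 of 17208 genes, 0.134%, a share that is no support for abd-A.

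The libraries with abd-A were those with the highest sums of larval fat body and muscle markers. The 7 fat body markers summed to 26.8, 14.1 and 20.3 CPM in WT and to 963, 3225, 932 and 61.6 CPM in ds38k replicates 1 to 4. The 10 larval muscle markers summed to 83.8, 101 and 102 CPM in WT and to 381, 279, 803 and 104 CPM in ds38k. Of the 10, 8 rose (edgeR), beside 34.2% of all tested genes. Replicate 4, with no abd-A counts, had the lowest sum of both lists among the ds38k libraries. The highest abd-A level and the highest muscle sum were both in ds38k replicate 3, and the highest fat body sum was in ds38k replicate 2. Salivary gland markers summed to 1166, 92.7, 24.4 and 0.365 CPM in ds38k and 0.104 to 11 CPM in WT, and midgut markers to 96.3, 1.26, 644 and 0.949 CPM in ds38k and 0.681 to 1.45 CPM in WT. The part of these tissues in the abd-A counts was not tested.

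**Figure D3:**
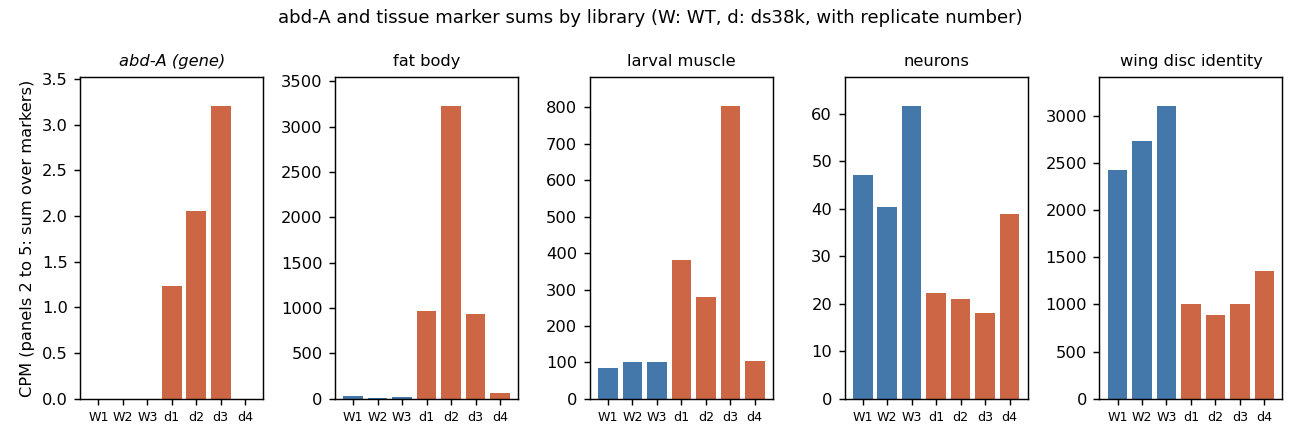
CPM of abd-A and summed CPM of the fat body, larval muscle, neuron and wing disc identity markers in each library (W, WT in blue; d, ds38k in orange; the digit is the replicate). The bars of abd-A, fat body and muscle are high in ds38k replicates 1 to 3 and low in replicate 4, at 0, 61.6 and 104 CPM. Each panel has its own axis from 0.

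Neural markers were mixed. The 10 neuron markers summed to 47.2, 40.3 and 61.6 CPM in WT and 22.3, 21.1, 18.1 and 38.9 CPM in ds38k, and Syn had at most 3 counts in every library. The 5 neuroblast markers summed to 21.9 to 31.5 CPM in WT and 45.0, 40.3, 40.4 and 77.5 CPM in ds38k. Replicate 4, without abd-A, had the highest ds38k value of both sums, of which elav and dpn made up most. Other members differed in direction. Syt1 was at 0.257 to 0.691 CPM in WT and 1.27, 4.24, 1.89 and 0.657 CPM in ds38k. ase was at 0 to 0.38 CPM in WT and 2.58, 2.27, 3.57 and 1.72 CPM in ds38k. Both were lowest among the ds38k libraries in replicate 4, where ase still had 47 counts and abd-A 0. insc, at 3.32 to 3.66 CPM in WT, was highest in that replicate, at 28.4 CPM beside 4.24 to 6.12 CPM. Snap25 was at 2.59 to 4.94 CPM in WT and 0.299, 0.168, 0.452 and 0 CPM in ds38k. The part of neural tissue in the abd-A counts was not tested.

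Abd-B (FBgn0000015), which specifies the posterior abdomen, the genital disc and the hindgut, stayed near the limit of detection. Abd-B lies on 3R from 16927212 to 16972236 on the minus strand. It had 0, 0 and 1 counts in WT and 0, 7, 3 and 7 in ds38k, and its highest level was 0.294 CPM (95% interval 0.118 to 0.605) in ds38k replicate 2. The groups overlapped, and 2 of the 4 ds38k libraries lay above 3 counts. Unlike abd-A, Abd-B had counts in ds38k replicate 4 and none in ds38k replicate 1. Fitted without the filter on low counts, Abd-B had an adjusted p of 0.105 (edgeR). Among the genital disc and hindgut markers byn and eve were at 0 in all 7 libraries and cad had at most 3 counts in each. The last of the 4, drm, was at 122.5 to 148.6 CPM in WT and 102.5 to 144.1 CPM in ds38k, and the part of those tissues in the Abd-B counts was not tested.

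The other genes within the 2 complexes differed in their detection. The bithorax complex spans 315.6 kb from Ubx to Abd-B, and its 12 other genes in the table, lncRNA:bxd, lncRNA:iab8 and lncRNA:iab4 among them, had at most 2 counts in any library. The Ubx and abd-A counts thus stood among genes that were nearly or wholly silent. The Antennapedia complex spans 337.8 kb from lab to Antp, and of its 35 other genes 14 were at 0 in all libraries and 27 had at most 10 counts in every library. The 7 that were tested gave 3 higher and 2 lower in ds38k, beside 34.2% and 30.8% of all tested genes. Among the lower ones, lncRNA:CR42651, named after its values were seen, had 1 to 36 counts. The homeobox genes that arose from Hox genes in this complex were scarcely detected: zen and zen2 had 0 counts throughout, ftz had at most 2, and bcd had 0 to 17.

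Ama, an immunoglobulin-domain gene between bcd and Dfd, was the exception, with 220 to 267 CPM in WT and 607 to 673 CPM in ds38k. Ama rose by a log2 value of 1.36 (SE 0.09; adjusted p = 2.2e-05, edgeR) and by 1.06 (SE 0.10) with the length trend removed, whereas Antp, in the same complex, had values of −1.18 and 0.00. lncRNA:CR33938, between lab and pb, was at 4.17 to 8.12 CPM in WT and 13.1 to 27.2 CPM in ds38k and rose by 1.93 (SE 0.33, adjusted p = 0.00173), or by 1.16 (SE 0.25) with the length trend removed. The signal recognition particle RNA gene 7SLRNA:CR32864, next to Scr, rose by 1.82 (SE 0.41, adjusted p = 0.00585), but the annotation holds another 7SL gene beside it, so its counts are uncertain. lncRNA:CR43252 lies within the span of Antp on the same strand without sharing an exon. It was at 2.26, 1.77 and 2.80 CPM in WT and 0.971, 0.756, 0.452 and 0.329 CPM in ds38k, with no overlap, and fell by 1.85 (SE 0.44, adjusted p = 0.00758), or by 2.46 (SE 0.43, adjusted p = 0.00342) with the length trend removed. The annotated gene CG46458, which shares exons with Antp, was not analysed here, and reads of these 2 genes cannot be told apart.

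**Figure D4:**
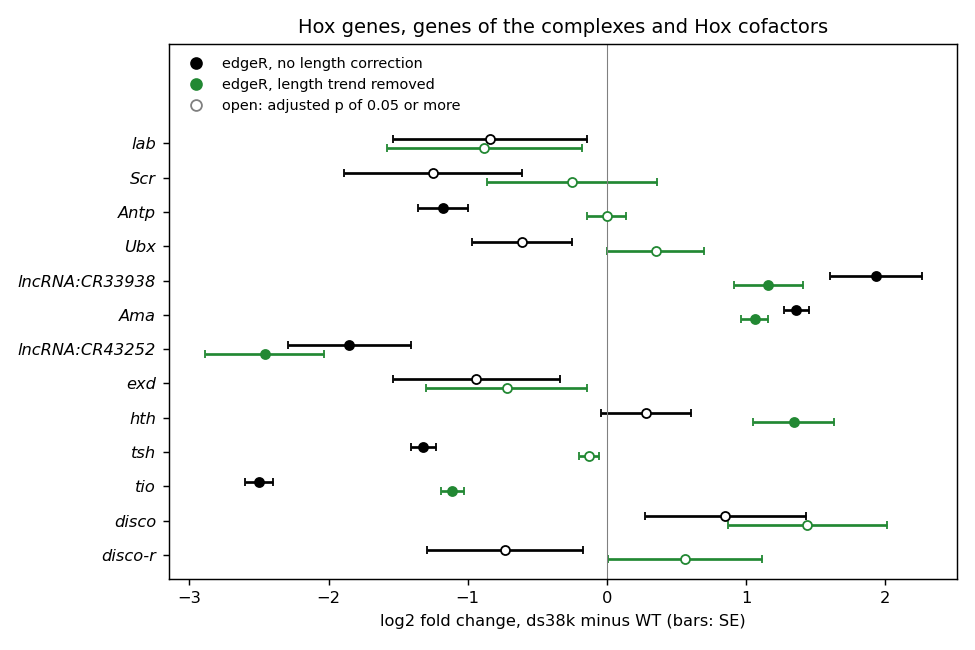
Log2 fold change, ds38k minus WT, with its standard error, for the tested Hox genes other than abd-A, for genes of the Antennapedia complex and for Hox cofactors, in 3 WT and 4 ds38k libraries. Black points are without and green points with the length trend removed, and filled points have an adjusted p under 0.05. Antp moves from −1.18 to 0.00, while Ama and lncRNA:CR43252 stay on their sides of 0.

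Of 6 cofactors and proximal partners of the Hox proteins, 2 were lower in ds38k, 0 higher and 4 not called. Their median log2 fold change was −0.84, beside 0.07 over all tested genes, of which 30.8% were lower and 34.2% higher. With the length trend removed 1 of the 6 was lower and 1 higher, beside 19.1% and 27.6% of all tested genes. exd, which binds DNA together with Hox proteins, was at 260, 321 and 425 CPM in WT and at 163, 67.2, 77.0 and 392 CPM in ds38k (log2 fold change −0.94, SE 0.60, adjusted p = 0.204, edgeR). As for lab and Scr, ds38k replicate 4 was the library within the WT range, and without it exd was at −1.71 with an adjusted p of 0.00417. hth, which carries Exd into the nucleus, was at 448, 569 and 1155 CPM in WT and 718 to 1073 CPM in ds38k (0.28, SE 0.32, adjusted p = 0.466), 1.34 (SE 0.29, adjusted p = 0.00867) with the length trend removed, and 0.78 with an adjusted p of 0.0157 without WT replicate 3. tsh, a trunk gene that works beside the Hox genes, fell by 1.32 (SE 0.09, adjusted p = 1.9e-05), and by 0.13 (SE 0.07, adjusted p = 0.157) in the length-corrected fit, where it did not pass the test. Its paralogue tio fell by 2.50 (SE 0.10, adjusted p = 3.0e-06) and by 1.11 (SE 0.08, adjusted p = 1.1e-04). disco and disco-r, partners of the head Hox genes, had log2 fold changes of 0.85 (SE 0.58) and −0.73 (SE 0.56) and were not called, although disco was at 1.83 with an adjusted p of 0.0136 without WT replicate 3.

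The chromatin regulators of the Hox genes were mostly lower before the length correction. Over all tested genes 30.8% were lower and 34.2% higher, and 19.1% and 27.6% with the length trend removed. In the longest of the 10 length classes, which holds Sfmbt and kis, 84.6% were lower. Of 22 Polycomb group genes 3 were higher and 14 lower, with a median log2 fold change of −0.94, and 2 were higher and 6 lower with the length trend removed. Sfmbt, a subunit of the PhoRC complex that recruits Polycomb proteins, was at 213 to 234 CPM in WT and 5.45 to 7.14 CPM in ds38k and fell by 5.20 (SE 0.11, adjusted p = 2.0e-06, edgeR), or by 3.99 (SE 0.14) with the length trend removed. Sfmbt was at 5.45, 7.14 and 5.99 CPM in ds38k replicates 1 to 3 and at 6.1 CPM in replicate 4. Any part of Sfmbt in the abd-A counts was not tested. Of 20 trithorax group genes 3 were higher and 11 lower, and 4 and 4 with the length trend removed. kis, a chromatin remodeller, fell by 2.27 (SE 0.13), and by 0.50 with the length trend removed. Of 7 insulator proteins that act at bithorax boundaries 2 were higher and 4 lower, and 1 and 1 with the length trend removed.

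The genes whose library-to-library variation most resembled that of Antp were chosen by Pearson correlation of log2 CPM deviations from the genotype means over the 7 libraries, among 6582 other genes averaging 10 CPM or more. They were Syx1A (r = 0.995), mbl (r = 0.988), heph (r = 0.984), MFS17 (r = 0.983) and Pde9 (r = 0.979). For Antp, 94 genes had r over 0.9 and 25 had r over 0.95. The 7 points share library depth and tissue makeup, and WT replicate 3 was the highest Antp library.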

How the data were processed

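RNA-seq was done on 3 WT and 4 ds38k wing disc libraries. The submitters' processing notes name Salmon 1.80, Trimmomatic 0.33, FastQC 0.10, edgeR and the dm6 build. The authors deposited one table of estimated counts per gene, which are not normalized and not divided by transcript length. Annotation release, strand setting and ribosomal RNA removal: not given in the sources used here.

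Estimated counts were rounded to whole numbers. Genes were kept with filterByExpr (minimum count 10), scaled with TMM factors and tested with edgeR 4.0.16 (glmQLFit, glmQLFTest; R 4.3.3), all 7 libraries in one fit with no covariate, Benjamini-Hochberg adjusted over all tested genes, threshold 0.05. Standard errors were derived from the fold change and its F statistic. CPM values are TMM-scaled. The length-corrected fit used as offset a natural spline (5 degrees of freedom) of each library's log2 CPM deviation on log2 median transcript length from Ensembl BDGP6.54 annotation, which also gave dm6 coordinates; 17083 of 17208 IDs matched. Limits of detection were 3 counts. Intervals for single libraries were at 95%, exact Poisson for counts and Wilson score for binomial shares. The edgeR fits with and without the length offset were tested on simulated counts. Libraries of one genotype were distinct beyond counting noise (chi-square over its degrees of freedom, 33.1 to 245).

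Named genes were the 8 Hox genes, the cofactors and the non-homeotic genes of the Antennapedia complex, up to 4 genes of other lists by smallest p, genes of the complexes with at least 1 CPM in either group, and the 5 genes most like Antp. The members and lists were chosen with earlier results of these data known. Alternatives were DESeq2 1.42.0, other scaling, no filter, the length offset, a replicate block, leaving out ribosomal RNA genes and leaving out libraries.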

Additional observations from a re-analysis of the deposited data

Results flagged for a closer look

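In groups of 4 to 10 libraries, a library was singled out where its gap to the nearest other, divided by the range, passed Dixon's 95% critical value. Of 56 ds38k groups examined (Hox genes, other named genes and marker sums) 11 held such a library. In 9 of the 11 it was ds38k replicate 4. Chance gives about 5%, but the groups share libraries and some genes, so the number flagged is no test. WT, with 3 libraries, was not examined. Among the Hox genes, Dfd had counts in a single ds38k library, which the rule flags at any level. Dfd was at 0.11 CPM in ds38k replicate 4, which is 3 counts, and at 0 in the other 3 ds38k libraries. In the same library tio was at 28.6 CPM (others 23.7 to 24.1), salm at 122.1 CPM (45.9 to 53.1), bs at 45.0 CPM (15.3 to 17.8) and 7SLRNA:CR32864 at 2.23 CPM (1.11 to 1.18). Its marker sums stood apart for neuroblasts at 77.5 CPM (others 40.3 to 45.0) and the eye-antennal disc at 48.9 CPM (7.14 to 13.4). Trachea, at 3115 CPM (2830 to 2843), and gonad, at 117.1 CPM (49.6 to 60.1), did so too. Most of that gonad sum was ovo, at 113.4 CPM, and only 1 of the 6 gonad genes was tested. The WT gonad sums were higher, at 234.7 to 351.8 CPM. The midgut sum stood apart in ds38k replicate 3, at 644.0 CPM beside 0.949 to 96.3, and the salivary gland sum in ds38k replicate 1, at 1166 CPM beside 0.365 to 92.7.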

How the results depend on the processing

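The call for Antp held with DESeq2 (−1.24), upper-quartile factors (−0.92), without the filter, with the replicate block and in all 7 fits that left out 1 library (−1.31 to −0.95). It was lost with the length offset (0.00) and the replicate block with length offset (−0.01). Replicate number 4 occurs only in ds38k, so in both block fits ds38k replicate 4 adds nothing to the genotype effect. The replicate block is thus close to leaving that library out, and not a separate check. Without ds38k replicates 1 to 3, a setting chosen after seeing the data, 1 ds38k library is left and assumed to vary like WT; Antp was then −1.05 (adjusted p = 0.0512, edgeR). Ubx turned to 0.35 with the length offset and 0.56 with block and offset (adjusted p = 0.0489, edgeR), and was −0.85 to −0.13 with 1 library left out. lab was −1.67 to −0.33 with 1 library left out and 0.35 without ds38k replicates 1 to 3. Scr was −1.78 with the replicate block (adjusted p = 0.0288, edgeR) and −1.68 to −0.84 with 1 library left out. abd-A was 8.39 to 8.87 (fitted values, no bounds) in the 4 fits that kept it, and failed the filter without ds38k replicate 1, 2 or 3. Over all genes, 2859 lower became 1760 with the length offset, 3183 higher became 1979 without ds38k replicates 1 to 3, and leaving out 1 library gave 2730 to 3341 higher and 2492 to 3190 lower. Upper-quartile factors moved the median log2 fold change from 0.07 to 0.33, with 3990 higher and 2259 lower. Among pathway-list genes, 9 higher became 15 with upper-quartile factors and 4 without ds38k replicates 1 to 3 (9 to 11 with 1 library left out); 36 lower became 13 with the length offset and 21 with block and offset (33 to 39). These turned sign with the length offset and with block and offset, respectively: disco-r 0.56 and 1.01, l(3)mbt 0.08 and 0.09, skd 0.06 and 0.04, ash1 0.47 and 0.51, Cp190 0.02 and 0.01, CTCF 0.03 and 0.00, salr 0.50 and 0.50, Syx1A 0.01 and 0.01, mbl 0.52 and 0.53, Pde9 0.37 and 0.39. BEAF-32 was −0.03 with block and offset, Syx1A 0.02 with upper-quartile factors, and with 1 library left out disco-r was −1.09 to 0.25 and Syx1A −0.37 to 0.03, highest without WT replicate 3. exd was 0.21 without ds38k replicates 1 to 3. The causes were not tested. Replicate numbers 1 to 3 are shared between genotypes. Deviations of same-numbered libraries correlated at 0.137, 0.00313 and 0.0982, and those of other pairs at −0.108 to 0.0445. The highest values, 0.137 and 0.0982, were thus same-numbered, but all were low and pairing was not established. The block gave 3376 higher and 3194 lower. Depth limits pb, Dfd and Abd-B, which had at most 7 counts in a library.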
